A study of Mus musculus with 24 samples.

Results

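The serum amyloid A family of the mouse comprises Saa1, Saa2, Saa3 and Saa4, and its members were taken here by symbol, which gave 4 of the 33272 genes in the deposited table. They were followed in liver and kidney of C57BL/6 mice through 4 arms, with 3 libraries per arm and tissue and 24 libraries in all. In the combination arm, CBLB502 at 0.2 mg/kg was given 30 min before cisplatin at 20 mg/kg into the peritoneum. The cisplatin arm received 20 mg/kg of cisplatin alone, and the CBLB502 arm received 0.2 mg/kg of CBLB502 alone. The control arm had no treatment, with no time or dose in the labels, and tissue of the other arms was taken at 72 h. CBLB502 is a derivative of bacterial flagellin that activates the receptor TLR5, and cisplatin is a platinum drug that crosslinks DNA and injures kidney tubules. The series asks, by its title, whether CBLB502 protects liver and kidney against cisplatin. The labels do not state whether the 3 libraries of a group are 3 animals, and the p-values therefore cover only the spread among libraries, some of which may be technical. The tissues are bulk samples, in which fewer cells of a type and less RNA per cell cannot be told apart.

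Serum amyloid A proteins are small apolipoproteins of high-density lipoprotein and the classic acute-phase reactants of the liver. Saa1 and Saa2 are induced in hepatocytes by interleukin-1, tumour necrosis factor and interleukin-6 through NF-kB, C/EBP and STAT3. Saa3 is made in the mouse mainly outside hepatocytes, by macrophages, adipocytes and epithelia, and Saa4 is the constitutive form of the liver.

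The 4 genes lie together on chromosome 7 of the mouse build GRCm38, over 42.3 kb from position 46711998 to 46754313. Saa3 (ENSMUSG00000040026) spans chr7:46711998-46715700, Saa4 (ENSMUSG00000040017) spans chr7:46727998-46732603, and Saa1 (ENSMUSG00000074115) spans chr7:46740497-46742980, all on the minus strand. Saa2 (ENSMUSG00000057465) spans chr7:46751790-46754313 on the plus strand, so Saa1 and Saa2 are transcribed away from each other. The 250 bases before each RefSeq start on GRCm38.p6 are shown because Saa1 and Saa2 moved together in liver while Saa4 did not. Positions are chr7:46742981-46743230 on the minus strand for Saa1, chr7:46751583-46751832 on the plus strand for Saa2, chr7:46715677-46715926 on the minus strand for Saa3 and chr7:46732604-46732853 on the minus strand for Saa4. The windows of Saa2 and Saa3 end inside the gene spans of the table, which start further upstream. Capitals mark matches to the C/EBP motif TTNNGNAA on either strand, and each line runs 5′ to 3′ towards the start of the gene.
Saa1: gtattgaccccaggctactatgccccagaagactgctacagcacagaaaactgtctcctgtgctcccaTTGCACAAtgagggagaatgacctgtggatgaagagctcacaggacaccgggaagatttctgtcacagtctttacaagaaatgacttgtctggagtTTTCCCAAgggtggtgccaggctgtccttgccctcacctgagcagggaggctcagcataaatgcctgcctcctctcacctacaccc
Saa2: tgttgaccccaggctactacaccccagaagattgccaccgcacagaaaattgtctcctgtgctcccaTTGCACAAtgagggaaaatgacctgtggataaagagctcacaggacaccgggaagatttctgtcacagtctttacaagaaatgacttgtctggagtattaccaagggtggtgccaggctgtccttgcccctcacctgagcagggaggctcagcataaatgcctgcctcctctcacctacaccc
Saa3: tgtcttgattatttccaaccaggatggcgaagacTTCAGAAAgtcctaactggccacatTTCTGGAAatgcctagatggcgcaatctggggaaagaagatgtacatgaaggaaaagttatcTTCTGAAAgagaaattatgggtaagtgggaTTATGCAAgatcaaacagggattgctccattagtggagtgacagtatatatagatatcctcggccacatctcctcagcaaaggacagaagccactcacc
Saa4: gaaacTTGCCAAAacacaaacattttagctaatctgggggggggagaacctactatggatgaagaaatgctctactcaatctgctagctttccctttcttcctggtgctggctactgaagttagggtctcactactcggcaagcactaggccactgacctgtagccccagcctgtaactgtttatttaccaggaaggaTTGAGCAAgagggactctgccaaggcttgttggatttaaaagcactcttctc

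Each of the 4 windows held the C/EBP motif, with 9 matches in all, and 36.8% of the 32851 promoters of this length in RefSeq held it too. Matches began 182 and 86 bases before the start in Saa1, 183 bases before it in Saa2, 216, 191, 129 and 99 bases before it in Saa3, and 245 and 52 bases before it in Saa4. None of the 4 windows held the NF-kB consensus, which 3.9% of promoters held, the STAT motif TTCNNNGAA, which 7.02% held, or the TATA box TATAAA, which 12.4% held. Motifs were searched on both strands. The windows of Saa1 and Saa2 were identical at 238 of 249 aligned bases (95.6%), against 58.1% to 64.0% for the other pairs of members. Their GENCODE transcripts, of 609 and 606 bases, were identical at 94.4% of aligned bases and shared 13.2% of stretches of 50 bases. Reads from the shared stretches can be counted to either gene, so single values of Saa1 and Saa2 are uncertain to that extent.

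Libraries held 40.58 to 77.54 M counts in liver and 52.85 to 77.1 M counts in kidney (M for mega). Control libraries differed in kind from treated ones. Genes of the mitochondrial chromosome took 2.57% to 7.1% of counts in treated liver and 69.3% to 72.24% in control liver, and 6.32% to 14.22% in treated kidney and 60.69% to 68.96% in control kidney. Without these genes and 7 nuclear copies of mitochondrial sequence, 48.6 to 74.5 M counts remained in treated liver and 2.82 to 4.65 M in control liver, and 44.0 to 68.83 M in treated kidney and 5.05 to 10.14 M in control kidney. Every comparison with control therefore also compares these kinds of library, and drug and kind of library cannot be told apart there. Cisplatin library 3 of liver and cisplatin library 6 of kidney stood apart from the rest of their groups. Over all tested genes, each lay nearer to the combination libraries, at a root mean square distance of 1.12 on the log2 scale in liver and 0.829 in kidney, than to the other cisplatin libraries of its tissue, at 1.6 and 1.41. Values without them are given beside most of the results they enter. Levels are given below as counts per M (CPM), with library sizes scaled by TMM within a tissue, folds are ratios of group means, and log2 fold changes with their standard errors come from edgeR's quasi-likelihood test. A gene was called at a Benjamini-Hochberg adjusted p below 0.05 over all tested genes.

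In liver, cisplatin brought Saa1 and Saa2 far above control, but mainly in a pair of its 3 libraries. Saa1 had 25320, 10130 and 171.1 CPM in cisplatin libraries 1, 2 and 3, against 7.57, 18.65 and 33.91 CPM in control. Every cisplatin library exceeded every control library. Saa2 had 18550, 7492 and 16.32 CPM in the cisplatin libraries, against 5.552, 13.62 and 20.73 CPM in control, so that cisplatin library 3 lay within the control range. In cisplatin library 1, Saa1 alone took 2.923% of all counts (Wilson 95% interval 2.919% to 2.927%, counting error only) and Saa2 took 2.142%. By counts per length, with mitochondrial genes left out, they ranked 7th and 9th among all genes in that library, 15th and 20th in library 2, and 494th and 2916th in library 3.

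Both acute-phase members passed edgeR's test. Saa1 rose 592-fold in cisplatin liver against control (log2 fold change 9.21 ± 1.57 SE, adjusted p = 0.000697) and Saa2 rose 653-fold (9.35 ± 1.88, adjusted p = 0.002). The size of these folds depends on the scale. Saa1 averaged 14460 CPM in cisplatin and 62.62 CPM in control on totals without mitochondrial genes and their nuclear copies. Per raw total it averaged 13940 CPM in cisplatin and 5.259 CPM in control. Without cisplatin library 3 the log2 fold changes were 9.82 for Saa1 and 9.96 for Saa2. DESeq2 also called both, and limma-voom called only Saa1 of the 4 members (adjusted p = 0.00308), with Saa2 at 0.0514 and Saa3 at 0.245. Of all 17931 genes tested in this comparison, 43.1% were called. Against CBLB502, where no library has the control make-up, 12.5% of genes were called, and Saa1 was 536-fold higher in cisplatin (9.06 ± 1.56, adjusted p = 0.00453) and Saa2 775-fold higher (9.6 ± 1.89, adjusted p = 0.00874). These log2 fold changes were 9.63 and 10.17 without cisplatin library 3. The Saa2 call there was lost without CBLB502 library 2 (9.21, adjusted p = 0.0507) or CBLB502 library 3 (9.59, adjusted p = 0.0514).

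**Figure D1:**
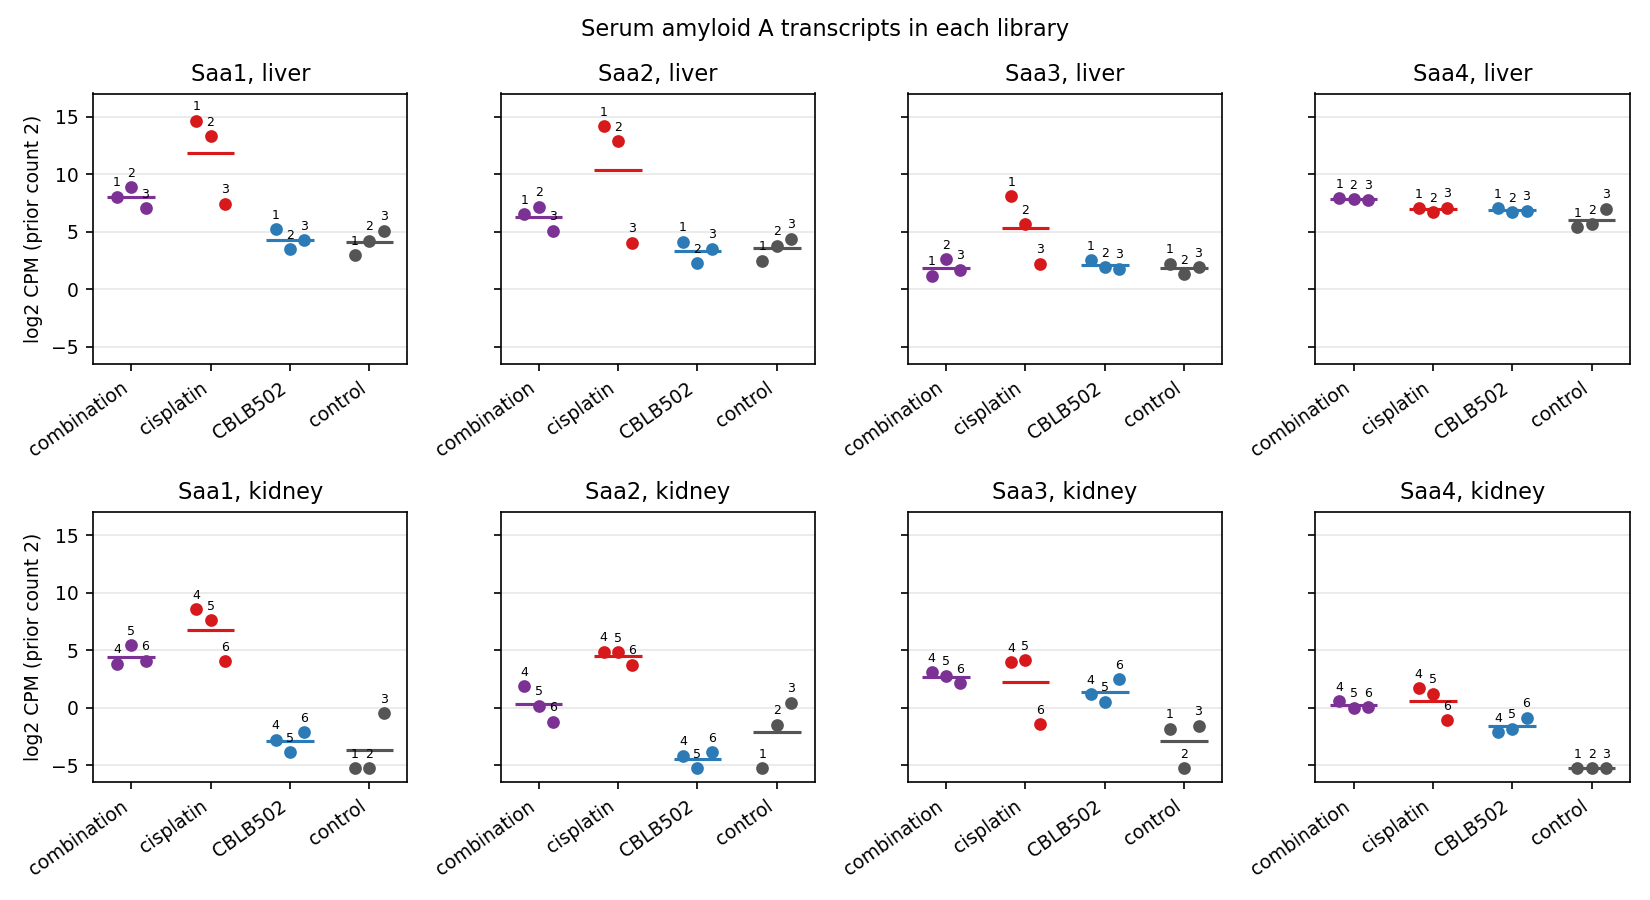
Level of each serum amyloid A gene in every library, as log2 CPM (prior count 2), in liver and in kidney, with arms in the order combination, cisplatin, CBLB502 and control; each point is a library and the bars mark arm means of the log2 values. In liver, cisplatin libraries 1 and 2 carry 25320 and 10130 CPM of Saa1 while library 3 carries 171.1 CPM, and Saa4 stays between 41.18 and 238.6 CPM in all 12 libraries.

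Saa3, the form of macrophages and epithelia, had the same libraries high and low, at a lower level. It had 272.9, 50.45 and 4.61 CPM in the liver cisplatin libraries, against 4.542, 2.477 and 3.723 CPM in control. The groups did not overlap on this scale, but cisplatin library 3 lay only just above the highest control library. Saa3 was 30.5-fold higher in cisplatin than in control (4.94 ± 1.11, adjusted p = 0.00403), and the log2 fold change was 5.54 without cisplatin library 3. On totals without mitochondrial genes and their nuclear copies, cisplatin library 3 had 7.348 CPM, within the 6.883 to 15.96 CPM of control. Saa3 then averaged 132.5 CPM in cisplatin and 11.62 CPM in control, and the groups overlapped. The transcripts of Saa1 and Saa3 share 9 of 560 stretches of 50 bases (1.61%), so reads could be counted to either gene there. Liver cisplatin libraries 1 and 2 had 24306 and 4624 counts of Saa3 beside 2255403 and 928349 counts of Saa1, and the part of shared reads in the Saa3 values was not tested. Against CBLB502, with 5.675, 3.741 and 3.421 CPM, Saa3 was 25.5-fold higher in cisplatin (4.67 ± 1.07, adjusted p = 0.0169), with overlapping libraries, and the value was 5.23 without cisplatin library 3 (adjusted p = 0.000146). That call was lost without cisplatin library 1 (2.69, adjusted p = 0.0579) and without any single CBLB502 library (4.93, 4.57 and 4.52 without libraries 1, 2 and 3, adjusted p from 0.0658 to 0.082).

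Macrophage and neutrophil markers were measured beside Saa3. The summed level of 6 macrophage markers was 25.41 to 75.44 CPM in cisplatin liver and 80.89 to 129.2 CPM in control liver, below control in every cisplatin library. The 8 neutrophil markers summed to 1.554 to 38.59 CPM in cisplatin liver and 3.483 to 7.95 CPM in control liver. All 8 were detected in the cisplatin group, while Ly6g, Retnlg, Mmp8, Ngp and Camp were at 0 in control. Control liver libraries held 2.82 to 4.65 M counts outside mitochondrial genes and their nuclear copies, against 48.6 to 74.5 M in treated liver. Rare transcripts can be missed at that depth, and its part in these zeros was not tested. The part of neutrophils in the Saa3 result was not tested.

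Saa4, the constitutive form, barely took part. It had 131.7, 101.1 and 134.0 CPM in the liver cisplatin libraries, against 41.18, 50.62 and 126.9 CPM in control. Control library 3 lay within the cisplatin range. The difference was 1.68-fold and was not called (0.75 ± 0.354, adjusted p = 0.11, 2 SE on either side from 0.04 to 1.45), nor without cisplatin library 3 (0.7, adjusted p = 0.148). Without control library 3 it was called in cisplatin (1.44, adjusted p = 0.000815) and in CBLB502 (1.36, adjusted p = 0.00232). Against CBLB502, with 130.3, 103.4 and 113.9 CPM, Saa4 in cisplatin was at 1.06 times the level (0.08 ± 0.351, adjusted p = 0.917, and −0.0 without cisplatin library 3). The 5 hepatocyte markers summed to 50340 to 66530 CPM in combination, 52150 to 68190 CPM in cisplatin, 41040 to 52210 CPM in CBLB502 and 10660 to 22570 CPM in control. Their sums were lowest in control, as was the mean of Saa4 on this scale, and their part in the Saa4 values was not tested. On totals without mitochondrial genes and their nuclear copies, Saa4 averaged 166.4 CPM in cisplatin, 244.3 CPM in CBLB502 and 231.5 CPM in control, so that cisplatin was then below control.

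For CBLB502 alone in liver at 72 h, none of the 4 genes was called against control by edgeR, while 27.8% of all genes were. Saa1 had 36.56, 11.08 and 18.88 CPM in CBLB502, against 7.57, 18.65 and 33.91 CPM in control, and the groups overlapped. The log2 fold change of Saa1 was 0.15 ± 1.11 (adjusted p = 0.935), with 2 SE reaching from −2.07 to 2.36. Saa2 had 17.5, 4.674 and 11.46 CPM in CBLB502, against 5.552, 13.62 and 20.73 CPM in control (−0.25 ± 1.32, adjusted p = 0.907). Log2 fold changes were 0.26 ± 0.982 for Saa3 (adjusted p = 0.863) and 0.67 ± 0.354 for Saa4 (adjusted p = 0.183). For Saa1, Saa2 and Saa3 these intervals are wide enough to hold a change of several fold either way. Saa4 was called without control library 3, as given above. The scale decides how the levels compare. Per raw total, Saa1 averaged 42.67 CPM in CBLB502 (20.97 to 70.74) and 5.259 CPM in control (1.818 to 8.305), and Saa4 averaged 222.3 CPM in CBLB502 and 18.77 CPM in control, both without overlap. On totals without mitochondrial genes and their nuclear copies, Saa1 averaged 46.85 CPM in CBLB502 and 62.62 CPM in control.

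With CBLB502 given before cisplatin, the acute-phase members of liver lay far below the high cisplatin libraries and, on the TMM scale, above control. Saa1 had 262.0, 467.6 and 131.8 CPM in combination libraries 1, 2 and 3, against 7.57, 18.65 and 33.91 CPM in control. The combination was 14.3-fold above control for Saa1 (3.84 ± 1.24, adjusted p = 0.0278), a comparison in which 40.2% of genes were called. This call was lost without combination library 2 (3.33, adjusted p = 0.0739), control library 1 (3.47, adjusted p = 0.0884) or control library 2 (3.81, adjusted p = 0.081). DESeq2 called Saa1 too (adjusted p = 0.00169), and limma-voom did not (adjusted p = 0.0692). Saa2 had 92.24, 143.4 and 33.3 CPM in combination, all above the highest control library, and did not pass (2.75 ± 1.4, adjusted p = 0.137). On totals without mitochondrial genes and their nuclear copies the groups overlapped, with Saa2 at 55.3 CPM in combination library 3 and 66.86 CPM in control library 3. Saa3 had 2.216, 6.1 and 3.148 CPM in combination and overlapped with control (0.1 ± 0.982, adjusted p = 0.944).

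Saa4 was highest in the combination. It had 238.6, 224.5 and 216.6 CPM there, above every library of the other 3 arms in liver. It was 3.11-fold higher than in control (1.64 ± 0.361, adjusted p = 0.00412). On totals without mitochondrial genes and their nuclear copies, Saa4 averaged 378.3 ± 28.0 CPM in combination and 231.5 ± 154 CPM in control (SD, n = 3 each), and on that scale the control libraries reached 409.2 CPM and overlapped with the combination. Against the other treated arms the difference missed the threshold, at 1.85-fold above cisplatin (0.89 ± 0.354, adjusted p = 0.176, and 0.98 with adjusted p = 0.0986 without cisplatin library 3) and 1.96-fold above CBLB502 (0.97 ± 0.355, adjusted p = 0.137).

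The comparison of the combination with cisplatin asks what the pretreatment added. In liver, 3.57% of genes were called, and Saa1 and Saa3 were among them. Saa1 averaged 287.1 ± 169 CPM in combination and 11870 ± 12700 CPM in cisplatin (SD, n = 3 each), 41.4-fold lower in the combination (−5.37 ± 1.32, adjusted p = 0.0489). Saa3 averaged 3.821 ± 2.03 CPM in combination and 109.3 ± 143 CPM in cisplatin, 28.6-fold lower (−4.84 ± 1.08, adjusted p = 0.0367). Neutrophil markers summed to 0.03588 to 0.3756 CPM in combination and 1.554 to 38.59 CPM in cisplatin, and macrophage markers to 14.63 to 21.2 CPM in combination and 25.41 to 75.44 CPM in cisplatin. Both sums were lower in every combination library than in any cisplatin library, and their part in the Saa3 result was not tested. Saa2 averaged 89.65 ± 55.1 CPM in combination and 8687 ± 9330 CPM in cisplatin, 96.9-fold lower, and just missed the threshold (−6.6 ± 1.67, adjusted p = 0.0535). All 3 overlapped, because cisplatin library 3 lay at 171.1 CPM of Saa1, 16.32 CPM of Saa2 and 4.61 CPM of Saa3. DESeq2 called all 3 and limma-voom none of them.

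These calls turn on single libraries. Without cisplatin library 3 all 3 genes were called, at −5.93 for Saa1 (adjusted p = 0.000332), −7.17 for Saa2 (adjusted p = 0.000167) and −5.39 for Saa3 (adjusted p = 0.000216). Without any other single library of either arm, Saa1 and Saa3 missed the threshold. For Saa1 the log2 fold change was then −4.17 and −5.46 without cisplatin libraries 1 and 2, and −5.29, −5.9 and −5.01 without combination libraries 1, 2 and 3, with adjusted p from 0.109 to 0.201. For Saa3 it was −2.85 and −5.17 without cisplatin libraries 1 and 2, and −4.55, −5.34 and −4.7 without combination libraries 1, 2 and 3, with adjusted p from 0.0655 to 0.165.

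Against CBLB502 alone, a comparison in which 6.74% of genes were called, edgeR called none of the 4 in the combination, and DESeq2 called Saa1 (3.65, adjusted p = 0.00417). Saa1 was 12.9-fold higher without overlap (3.69 ± 1.22, adjusted p = 0.0999) and Saa2 8.0-fold higher without overlap (3.0 ± 1.41, adjusted p = 0.269), while Saa3 gave −0.16 ± 0.928 (adjusted p = 0.97). With only these arms in the fit, edgeR called Saa1 (3.65, adjusted p = 0.00225), Saa2 (2.95, adjusted p = 0.00774) and Saa4 (0.92, adjusted p = 0.00056).

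The interaction term compares the difference that cisplatin makes after CBLB502 with the difference it makes alone. The latter is taken against control, so drug and kind of library cannot be told apart in the term either. In liver it was negative for Saa1 (−5.52 ± 1.66, adjusted p = 0.0346), Saa2 (−6.35 ± 2.01, adjusted p = 0.0426) and Saa3 (−5.1 ± 1.41, adjusted p = 0.0237), and 21.7% of all genes were called. For Saa4 it was 0.22 ± 0.498 (adjusted p = 0.793), and 0.27 without cisplatin library 3. DESeq2 called the same 3 members and limma-voom none. Without cisplatin library 3 the terms were −6.12 (adjusted p = 0.000642) for Saa1, −6.96 (adjusted p = 0.000341) for Saa2 and −5.7 (adjusted p = 0.00047) for Saa3. Leaving out a single library of the 12 lost the call in 9 fits for Saa1 (all but those without cisplatin library 3, control library 3 or CBLB502 library 2), in 11 for Saa2 (all but that without cisplatin library 3) and in 6 for Saa3 (without CBLB502 library 1, cisplatin library 1, combination libraries 1 or 3, or control libraries 2 or 3). Over the 12 fits the term ranged from −6.14 to −4.31 for Saa1, from −6.96 to −5.14 for Saa2 and from −5.7 to −3.12 for Saa3.

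**Figure D2:**
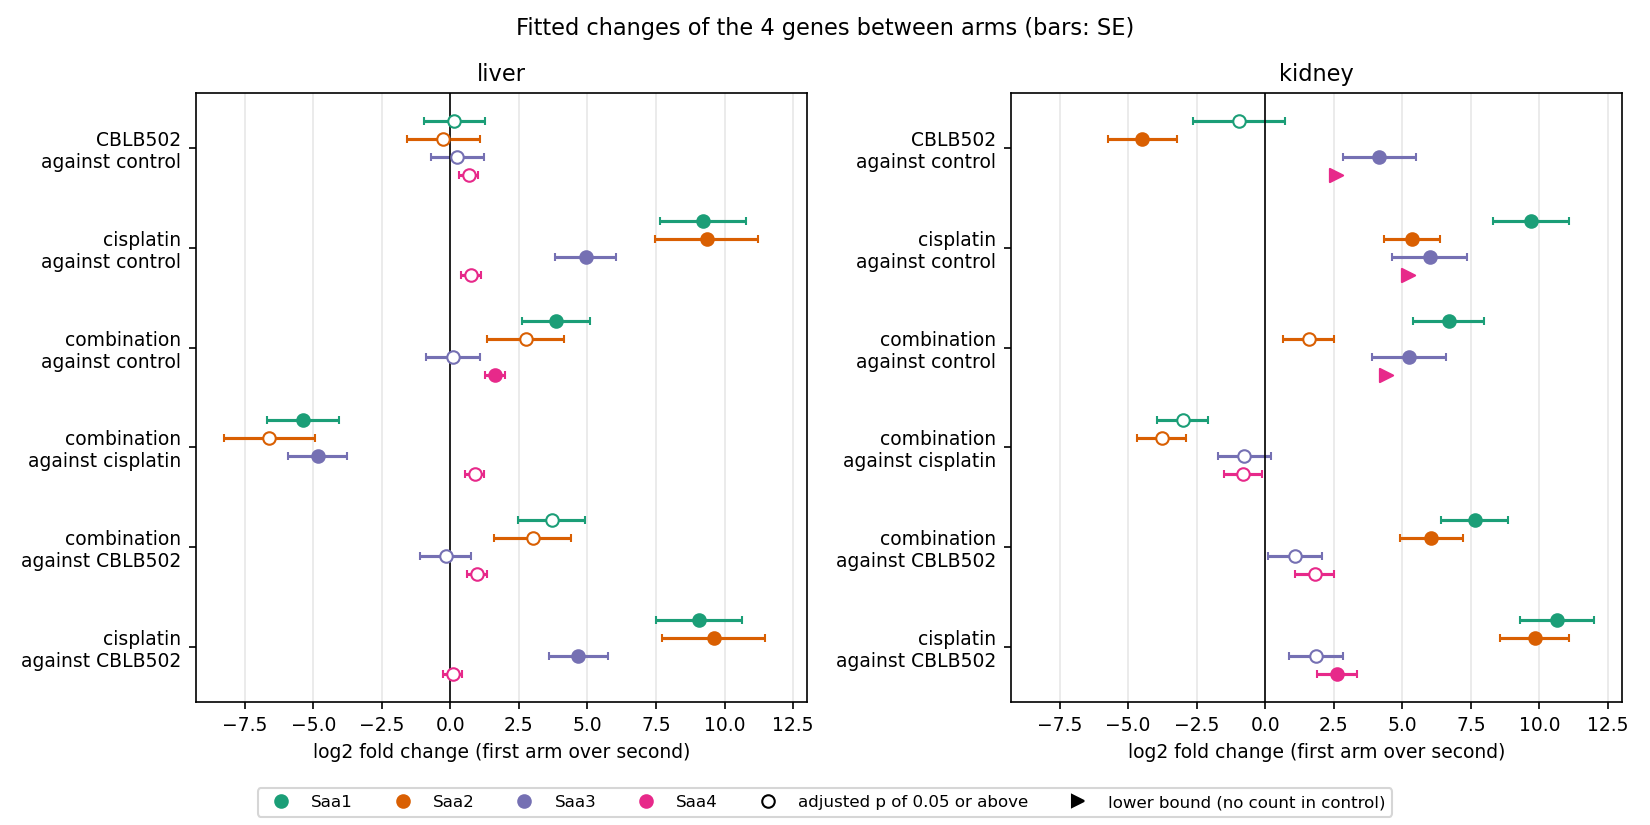
Log2 fold change of each serum amyloid A gene in the 6 pairs of arms, in liver and in kidney, with bars of 1 SE; filled points passed the test, open points did not, and triangles give the lower bound for Saa4 against kidney control, where no count was found. Saa1 stands at 9.21 in liver and 9.7 in kidney for cisplatin against control, and at −5.37 and −3.01 for the combination against cisplatin.

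In kidney, all 4 genes rose with cisplatin against control, where 39.3% of genes were called. Saa1 had 378.4, 196.4 and 16.47 CPM in cisplatin libraries 4, 5 and 6, against 0, 0 and 0.6754 CPM in control, the last of these from 13 counts. It was 876-fold higher in cisplatin (9.7 ± 1.39, adjusted p = 0.000308). That size too depends on the scale. On totals without mitochondrial genes and their nuclear copies, Saa1 averaged 268.8 CPM in cisplatin and 0.5693 CPM in control. Per raw total it averaged 242.5 CPM in cisplatin and 0.0802 CPM in control. Saa2 had 29.08, 28.09 and 13.33 CPM in cisplatin, against 0, 0.328 and 1.299 CPM in control, and was 43.3-fold higher (5.35 ± 1.01, adjusted p = 0.0017). Library 6 was the lowest for both, as library 3 was in liver, and yet above every control library.

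Saa3 had 15.42, 17.34 and 0.3448 CPM in the kidney cisplatin libraries, against 0.2537, 0 and 0.3117 CPM in control, and was 58.6-fold higher (6.0 ± 1.36, adjusted p = 0.00491). Library 6 was again low and only just above control on this scale. On totals without mitochondrial genes and their nuclear copies, library 6 had 0.5866 CPM of Saa3, below the highest control library at 0.7883 CPM. Saa4 had 3.227, 2.305 and 0.4509 CPM in cisplatin, from 298, 202 and 51 counts, and no count in any control library. Measured against 3 counts over the control group (0.05409 CPM), it was at least 36.9-fold higher in cisplatin (adjusted p = 0.000882). The floor covers counting error only. Without cisplatin library 6 the log2 fold changes were 10.25 for Saa1, 5.62 for Saa2 and 6.6 for Saa3, Saa4 had an adjusted p of 4.64e-05, and all 4 genes kept their call in each fit that left out a single library. DESeq2 called all 4 as well, and limma-voom called Saa2 (adjusted p = 0.0156) and Saa4 (adjusted p = 0.0351) but not Saa1 (adjusted p = 0.165) or Saa3 (adjusted p = 0.405).

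In CBLB502 kidney the family was at low levels, with Saa3 the highest of the 4 genes. Drug and kind of library cannot be told apart in the comparison with control. Saa3 had 2.225, 1.422 and 5.554 CPM in CBLB502, from 225, 135 and 519 counts, against 0.2537, 0 and 0.3117 CPM in control, and was 16.3-fold higher (4.15 ± 1.33, adjusted p = 0.0484). In this comparison 19.2% of genes were called. Saa4 had 0.1977, 0.2528 and 0.5244 CPM in CBLB502 and no count in control, at least 6.01-fold higher (adjusted p = 0.0178). Saa2 had 0.02966, 0 and 0.04281 CPM in CBLB502, from 3, 0 and 4 counts, against 0, 0.328 and 1.299 CPM in control, from 0, 8 and 25 counts. It was called lower (−4.48 ± 1.25, adjusted p = 0.0279) with overlapping groups and few counts. Saa1 stayed at 0.1186, 0.04214 and 0.2033 CPM in CBLB502 and was not called (−0.95 ± 1.67, adjusted p = 0.743).

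The CBLB502 calls in kidney are weak. DESeq2 called the same 3 members and limma-voom none. The Saa3 call was lost without any single library of the 6, with log2 fold changes of 4.35, 4.51 and 3.41 without CBLB502 libraries 4, 5 and 6 and of 4.42, 3.42 and 5.08 without control libraries 1, 2 and 3 (adjusted p from 0.0639 to 0.137). The Saa2 call was lost without CBLB502 libraries 4, 5 or 6 (−4.64, −3.92 and −5.08, adjusted p from 0.0617 to 0.09) and without control library 3 (−2.99, adjusted p = 0.227). The Saa4 call was lost without control library 2 (adjusted p = 0.051) or control library 3 (adjusted p = 0.0505). The 6 macrophage markers summed to 41.71 to 77.07 CPM in CBLB502 kidney and 47.22 to 75.01 CPM in control kidney, and the part of macrophages in the Saa3 values was not tested. The 7 adipocyte markers summed to 80.8 to 183.0 CPM in CBLB502 kidney and 96.64 to 4022 CPM in control kidney.

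The combination kept Saa1, Saa3 and Saa4 above control in kidney, where 36.5% of genes were called. Saa1 had 14.08, 42.19 and 16.98 CPM in combination libraries 4, 5 and 6, 108-fold above control (6.69 ± 1.3, adjusted p = 0.00208). Saa3 had 8.388, 6.807 and 4.397 CPM there, 34.6-fold above control (5.24 ± 1.35, adjusted p = 0.00991). Saa4 had 1.443, 0.9667 and 0.9984 CPM, at least 21.0-fold above control (adjusted p = 0.00168). Saa2 had 3.66, 1.089 and 0.4032 CPM, overlapping with control, and was not called (1.58 ± 0.934, adjusted p = 0.209). DESeq2 called the same 3 members, and limma-voom called only Saa4 (adjusted p = 0.0482).

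Against cisplatin, edgeR called no member in the combination in kidney, and DESeq2 called Saa2 (−3.81, adjusted p = 0.0344). The share called of all 20341 genes was 0.00492%, which is 1 gene, although 2614 genes had an unadjusted p under 0.05 and DESeq2 called 623. Saa1 averaged 24.42 ± 15.5 CPM in combination and 197.1 ± 181 CPM in cisplatin (SD, n = 3 each), 8.07-fold lower with overlap at cisplatin library 6 (−3.01 ± 0.928, adjusted p = 0.253, 2 SE on either side from −4.87 to −1.16). Saa2 averaged 1.717 ± 1.72 CPM in combination and 23.5 ± 8.82 CPM in cisplatin, 13.7-fold lower without overlap (−3.77 ± 0.892, adjusted p = 0.229). Saa3 averaged 6.531 ± 2.01 CPM in combination and 11.04 ± 9.31 CPM in cisplatin (−0.76 ± 0.969, adjusted p = 0.818), and Saa4 gave −0.81 ± 0.685 (adjusted p = 0.687). Without cisplatin library 6, Saa1 (−3.56 ± 0.56, adjusted p = 0.000963) and Saa2 (−4.06 ± 0.835, adjusted p = 0.00487) were called lower in the combination, and Saa3 (−1.32, adjusted p = 0.111) and Saa4 (−1.28, adjusted p = 0.11) were not.

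Set against CBLB502, cisplatin kidney had 1620-fold more Saa1 (10.65 ± 1.35, adjusted p = 0.000518) and 973-fold more Saa2 (9.83 ± 1.26, adjusted p = 0.000527), in a comparison with 28.7% of genes called. Without cisplatin library 6 the log2 fold changes were 11.19 and 10.11. Saa4 was 6.14-fold higher (2.61 ± 0.728, adjusted p = 0.0249) with overlap at cisplatin library 6, and gave 3.09 without that library (adjusted p = 0.00111). Its call was lost without cisplatin library 4 (2.08) or 5 (2.48) or CBLB502 library 4 (2.35) or 5 (2.46), with adjusted p from 0.0705 to 0.0976. Saa3 was 3.6-fold higher and not called (1.85 ± 0.997, adjusted p = 0.187), but was called without cisplatin library 6 (2.42 ± 0.561, adjusted p = 0.00403). The combination had more Saa1 than CBLB502 (log2 fold change 7.64 ± 1.23, adjusted p = 0.00128) and more Saa2, by 71.1-fold (6.06 ± 1.16, adjusted p = 0.00338), with 23.8% of genes called. Saa3 (1.09 ± 0.979, adjusted p = 0.457) and Saa4 (1.8 ± 0.71, adjusted p = 0.0959) did not pass.

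Markers of hepatocytes, the main source of Saa1, Saa2 and Saa4, were low in kidney, where the treated arms overlapped and control lay below them. The 5 markers summed to 312.5 to 432.2 CPM in combination, 315.7 to 365.7 CPM in cisplatin, 222.1 to 347.0 CPM in CBLB502 and 61.06 to 94.4 CPM in control kidney, with none at 0. Their part in the values of the family in kidney was not tested. The 6 tubule markers summed to 12810 to 13980 CPM in combination, 5203 to 16080 CPM in cisplatin, 16610 to 20520 CPM in CBLB502 and 7460 to 12560 CPM in control kidney, against at most 42.46 CPM in any liver library. The labelled tissues thus carried their own markers. Neutrophil markers in kidney summed to 0.08367 to 1.547 CPM in combination, 1.167 to 25.74 CPM in cisplatin, 0.6847 to 0.9417 CPM in CBLB502 and 1.522 to 2.419 CPM in control, and their part in the cisplatin values was not tested.

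The kidney interaction, which also takes in the control libraries, was called for 8.01% of genes. It was −4.91 ± 1.66 for Saa3 (adjusted p = 0.0918, and −5.51 with adjusted p = 0.00181 without cisplatin library 6), −2.06 for Saa1 (adjusted p = 0.523) and 0.71 for Saa2 (adjusted p = 0.815). Without cisplatin library 6 it was −2.61 for Saa1 (adjusted p = 0.16) and 0.43 for Saa2 (adjusted p = 0.869). Saa4 was called (adjusted p = 0.0341), but its fitted value rests on a control group at 0 and is not a size. The Saa4 call was lost in 11 of 12 fits that left out a single library (adjusted p from 0.0507 to 0.08), and was kept without cisplatin library 6 (adjusted p = 0.00271). DESeq2 called Saa3 (−4.79, adjusted p = 0.0109) and Saa4, and limma-voom no member.

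Across both tissues, the order of the 8 groups differed from member to member. On a scale common to all 24 libraries, Saa1 averaged 16960 ± 18100 CPM in cisplatin liver, 395.8 ± 233 in combination liver, 136.9 ± 125 in cisplatin kidney, 31.15 ± 18 in CBLB502 liver, 28.92 ± 19.2 in control liver and 17.06 ± 10.7 in combination kidney (SD, n = 3 each). Each of these neighbours overlapped with the next. A gap separated them from control kidney at 0.1548 ± 0.268 CPM and CBLB502 kidney at 0.09043 ± 0.0589 CPM, which overlapped.

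Saa2 had the same leader, at 12410 ± 13300 CPM in cisplatin liver and 123.7 ± 76.1 CPM in combination liver. Control liver (19.19 ± 11.1 CPM), cisplatin kidney (16.43 ± 5.9 CPM) and CBLB502 liver (15.77 ± 8.9 CPM) came next and overlapped in turn. The combination liver libraries lay above all of these, while the lowest cisplatin liver library, at 23.63 CPM, lay among those of control liver. Combination, control and CBLB502 kidney lay lower, between 0.01796 and 1.207 CPM on average. For Saa3, 7 of the 8 groups overlapped in turn, from 156.2 ± 205 CPM in cisplatin liver to 2.283 ± 1.59 CPM in CBLB502 kidney, and control kidney lay below them at 0.1274 ± 0.113 CPM. Saa4 was ordered by tissue. It averaged 312.0 ± 17.9 CPM in combination liver, then 175.5 ± 27.2, 163.2 ± 17.9 and 104.9 ± 68.2 CPM in cisplatin, CBLB502 and control liver, which overlapped. Kidney followed at 1.387 ± 0.974 CPM in cisplatin, 0.7962 ± 0.192 CPM in combination and 0.2426 ± 0.126 CPM in CBLB502, with no count in control.

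Kidney was compared with liver within each arm in a fit of all 24 libraries and 21570 genes. In the combination, 40.2% of genes were called, and kidney was lower for Saa1 (−4.54 ± 1.28, adjusted p = 0.00754), Saa2 (−6.68 ± 1.49, adjusted p = 0.00123) and Saa4 (−8.61 ± 0.681, adjusted p = 1.48e-08). Saa3 was not called there (−0.2 ± 0.991, adjusted p = 0.906). In cisplatin, 34.9% of genes were called, and kidney was lower for all 4 genes, at −6.95 ± 1.43 for Saa1 (adjusted p = 0.000679), −9.56 ± 1.68 for Saa2 (adjusted p = 0.000139), −4.35 ± 1.13 for Saa3 (adjusted p = 0.00471) and −6.98 ± 0.634 for Saa4 (adjusted p = 9.5e-08). The Saa3 call was lost without liver cisplatin library 1 (−2.36, adjusted p = 0.0771). Without kidney cisplatin library 6 the values were −6.39, −9.28, −3.77 and −6.51 for Saa1 to Saa4, and without liver cisplatin library 3 they were −7.52, −10.13, −4.9 and −6.9.

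In CBLB502, 29.9% of genes were called between kidney and liver, and the differences were −8.4 ± 1.57 for Saa1, −9.65 ± 1.83 for Saa2 and −9.39 ± 0.709 for Saa4 (adjusted p = 0.000307, 0.000366 and 1.29e-08). Saa3 again missed the threshold (−1.4 ± 1.01, adjusted p = 0.339). In control, 33.9% were called and kidney was lower for all 4 genes, at −7.48 ± 1.6 for Saa1 (adjusted p = 0.00116), −5.61 ± 1.5 for Saa2 (adjusted p = 0.00692) and −5.46 ± 1.53 for Saa3 (adjusted p = 0.00937). Saa4 had no count in control kidney and 408, 654 and 1261 counts in control liver (adjusted p = 1.45e-08). In each arm Saa3 had the smallest fitted difference of the 4 genes, and in the combination and CBLB502 arms it was not called.

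Whether an arm's change differed between the tissues was tested as a difference of differences, kidney minus liver. For cisplatin against control, 14.2% of genes were called, and Saa4 was the only member among them (adjusted p = 0.00277, 0.000158 without kidney cisplatin library 6 and 0.00417 without liver cisplatin library 3). Its control group was at 0 in kidney, so the fitted value is not a size. In numbers, cisplatin was at least 36.9-fold above control in kidney and 1.68-fold above control in liver for Saa4. Without liver cisplatin library 3, Saa2 was also called, with the smaller change in kidney (−4.54, adjusted p = 0.0175). For CBLB502 against control, edgeR called 7.51% of genes and no member, with Saa4 at adjusted p = 0.0756 and Saa3 at 4.06 (adjusted p = 0.203), while DESeq2 called Saa4 (adjusted p = 0.014). For the combination against cisplatin, 0.964% of genes and no member were called, and Saa3 had 4.15 (adjusted p = 0.185). Without liver cisplatin library 3 that value was 4.71 and was called (adjusted p = 0.0232), and without kidney cisplatin library 6 Saa4 was called at −2.12 (adjusted p = 0.0401).

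The make-up of the family shows which member dominates, and it does not depend on how a library is scaled. It does depend on the gene lengths used, as given below. Counts of the 4 genes were divided by the lengths that the deposited FPKM values imply, 2881 bases for Saa1, 2930 for Saa2, 3035 for Saa3 and 2434 for Saa4. In combination liver, Saa4 held 44.3%, 30.2% and 60.5% of the summed level and Saa1 held 41.1%, 53.1% and 31.1%. In cisplatin liver, Saa1 held 57.6% and 57.3% and Saa2 held 41.5% and 41.7% in libraries 1 and 2, which left 0.354% and 0.677% to Saa4. In cisplatin library 3, Saa4 held 45.3%, Saa1 48.9% and Saa2 4.58%. In CBLB502 liver, Saa4 held 72.3%, 86.4% and 80.1%, and in control liver it held 73.8%, 63.5% and 72.2%.

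Kidney had another make-up. Saa1 held 51.5%, 82.9% and 74.7% in combination and 88.9%, 80.8% and 54.1% in cisplatin, while Saa3 held 84.7%, 79.8% and 85.9% in CBLB502. In control kidney the 3 libraries had 3, 8 and 44 counts of the whole family, too few for shares. Using the lengths of GENCODE transcripts instead, at 609 bases for Saa1 and 2094 for Saa4, a choice made after seeing the data, the Saa4 share in liver was 16.3%, 9.55% and 27.2% in combination, 38.6%, 60.2% and 49.2% in CBLB502 and 39.8%, 29.6% and 38.5% in control. With these lengths Saa1 held 61.4%, 68.4% and 56.9% in combination liver and led Saa4 in every library there. Saa1 also led in control liver library 2 (37.5% against 29.6% for Saa4), and Saa4 led in the other control liver libraries and in CBLB502 liver. Shares and the leading member thus depend on the length used, and the one behind the deposited FPKM is not given in the sources used here.

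**Figure D3:**
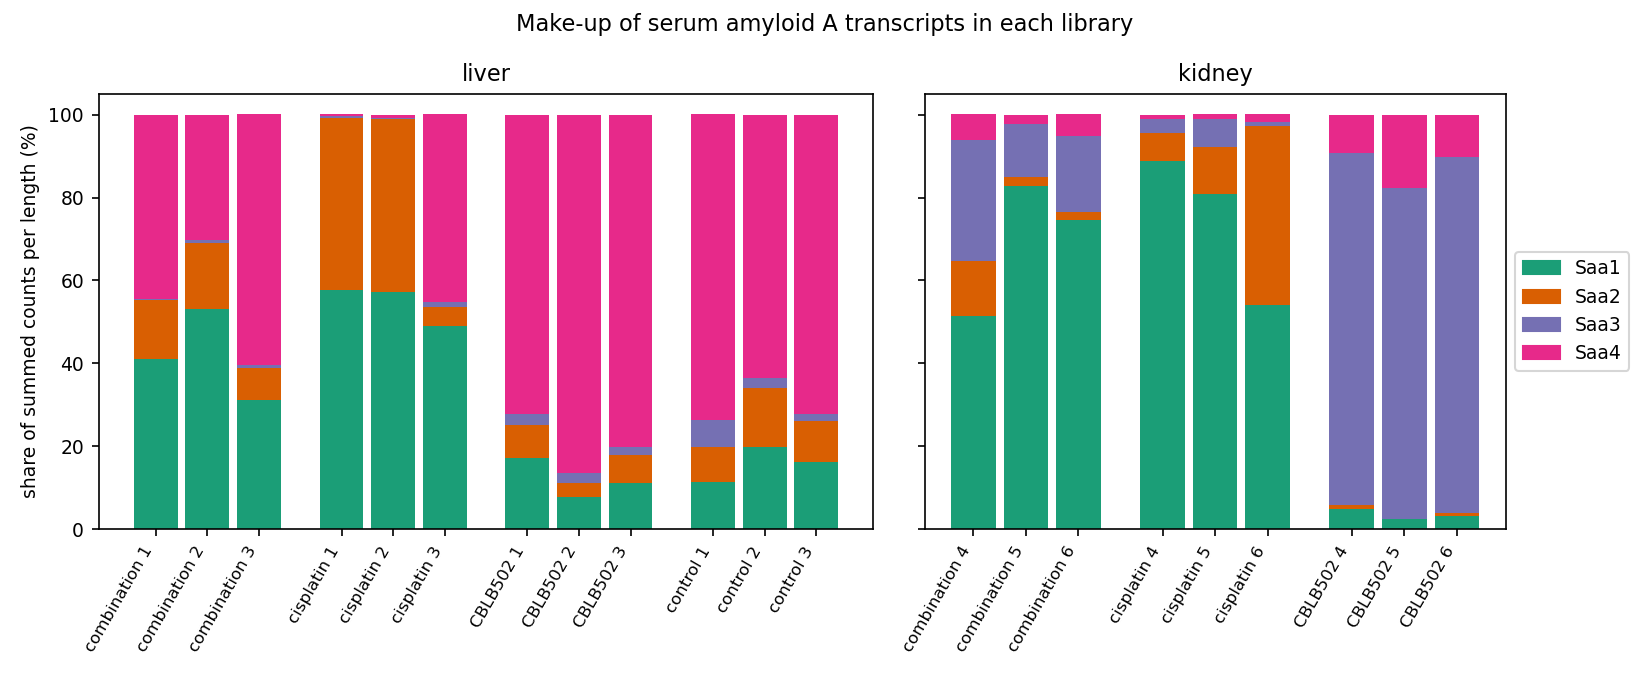
Share of Saa1, Saa2, Saa3 and Saa4 in the summed level of the family, as counts per implied length, in percent, with 1 bar per library; liver arms run combination, cisplatin, CBLB502 and control, and kidney control is left out for want of counts. Saa4 holds 63.5% to 86.4% of the bars in CBLB502 and control liver, Saa1 and Saa2 fill cisplatin liver libraries 1 and 2, and Saa3 holds 79.8% to 85.9% in CBLB502 kidney.

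The ratio of the near-identical pair also moved. In liver, Saa2 had 0.352, 0.307 and 0.253 counts per count of Saa1 in combination and 0.733, 0.74 and 0.0954 in cisplatin libraries 1, 2 and 3. It had 0.479, 0.422 and 0.607 in CBLB502 and 0.733, 0.73 and 0.611 in control. Cisplatin library 3 thus held less Saa2 per Saa1 than any other liver library. In kidney, Saa2 per Saa1 was 0.26, 0.0258 and 0.0237 in combination libraries 4, 5 and 6 and 0.0768, 0.143 and 0.809 in cisplatin libraries 4, 5 and 6. Kidney cisplatin library 6, which was low in Saa1, was therefore high in Saa2 per Saa1, opposite to liver cisplatin library 3. Because reads of the pair can be exchanged in counting, the 2 genes were also tested as 1 summed gene. The sum was called in the same pairs of arms as Saa1 in both tissues, with 9.27 ± 1.64 for cisplatin against control in liver (adjusted p = 0.000892) and −5.77 ± 1.41 for the combination against cisplatin (adjusted p = 0.0475).

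**Figure D4:**
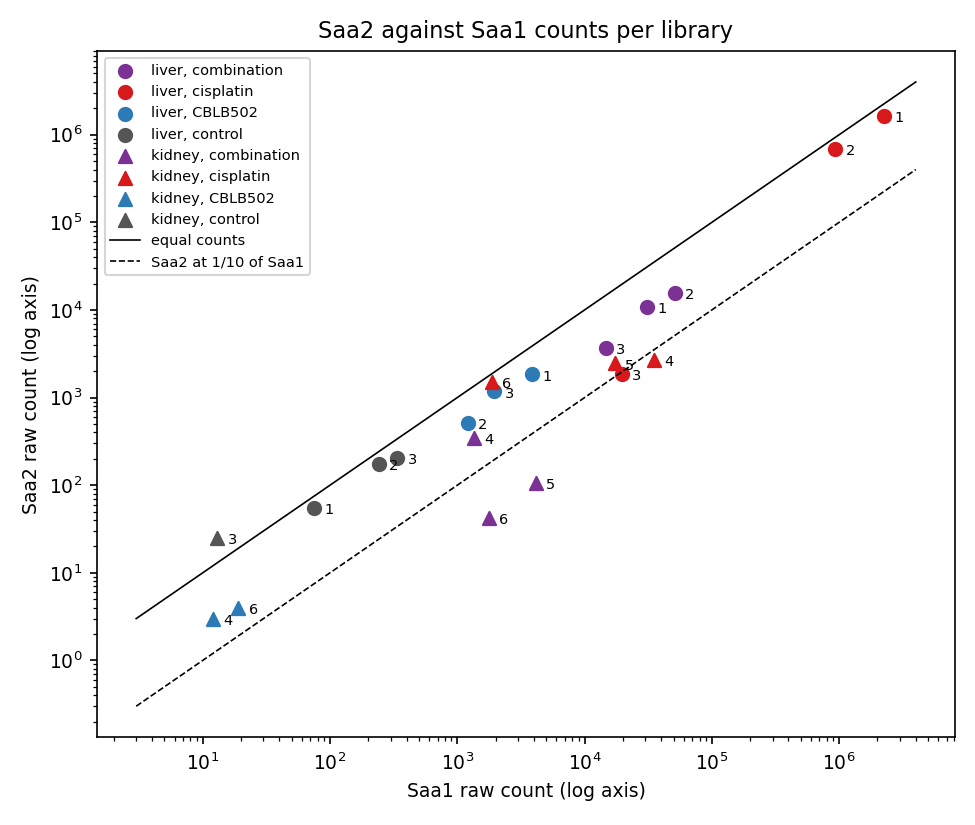
Raw count of Saa2 against raw count of Saa1, both on log axes, in every library with counts of both; circles are liver, triangles are kidney, colours are arms, the solid line marks equal counts and the dashed line the lower ratio given in the legend. Liver cisplatin libraries 1 and 2 sit at the upper right with 0.733 and 0.74 counts of Saa2 per count of Saa1, and liver cisplatin library 3, at 0.0954, lies on the dashed line, below the other liver libraries.

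Other genes of the acute-phase response were followed as a list of 21 positive acute-phase proteins, chosen with earlier results of these data known. In liver, 19 of 21 rose and none fell with cisplatin against control, with a median log2 fold change of 4.26 against 0.09 over all genes, and 20 rose without cisplatin library 3. Of all genes, 43.1% were called in either direction with all libraries, and the share without cisplatin library 3 is not given here. Lcn2, a siderophore-binding protein, averaged 3714 ± 3330 CPM in cisplatin and 5.768 ± 1.99 CPM in control (9.33 ± 1.41, adjusted p = 0.000327). Serpina3n, a protease inhibitor, averaged 7149 ± 5480 CPM in cisplatin and 81.7 ± 13.1 CPM in control (6.45 ± 0.767, adjusted p = 6.62e-05), and Steap4, a metalloreductase, rose 134-fold. Against CBLB502, 18 of 21 rose in cisplatin (median 3.02 against −0.06 over all genes), where 12.5% of all genes were called. With CBLB502 alone, 4 rose and 2 fell against control, a share close to the 27.8% of all genes called and so no result about the list, Serpina3m rising 5.74-fold and Orm3, an orosomucoid, falling 9.05-fold. In the combination, 16 rose against control (median 2.23) and 8 rose against CBLB502 (median 1.25), where 40.2% and 6.74% of all genes were called. Lcn2 averaged 484.3 ± 206 CPM in combination and 4.881 ± 1.73 CPM in CBLB502.

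Between the combination and cisplatin in liver, 5 of the 21 fell in the combination and none rose, with a median of −1.58 against 0.01 over all genes. Of all genes, 3.57% were called there. Hpx, the haem carrier hemopexin, averaged 3120 ± 756 CPM in combination and 28850 ± 18400 CPM in cisplatin (−3.21 ± 0.495, adjusted p = 0.0102). Steap4 averaged 43.54 ± 13.9 CPM in combination and 933.3 ± 887 CPM in cisplatin (−4.42 ± 0.852, adjusted p = 0.0209), and Orm1, an orosomucoid, 735.3 ± 184 CPM in combination and 5973 ± 4250 CPM in cisplatin (−3.02 ± 0.62, adjusted p = 0.0263). Without cisplatin library 3, a choice made after seeing the data, 14 of 21 fell (median −2.09 against 0.06 over all genes). The share of all genes called without that library is not given here, so this count stands without its background.

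In kidney, 13 of the 21 rose with cisplatin against control (median 2.61, and 15 rose without cisplatin library 6) and 12 against CBLB502 (median 3.08). Of all genes, 39.3% and 28.7% were called in these comparisons with all libraries. Fgg, a fibrinogen chain, averaged 2376 ± 2220 CPM in cisplatin, 9.709 ± 0.472 CPM in CBLB502 and 3.701 ± 1.79 CPM in control. In the combination, 9 rose and 1 fell against control (median 1.67) and 5 rose against CBLB502 (median 1.46). Of all genes, 36.5% and 23.8% were called there, so these counts lie near the background and are no result about the list. With CBLB502 alone 2 rose against control, fewer than the 19.2% of all genes called there and so no result about the list. Cfb (complement factor B) rose 2.07-fold. Crp (C-reactive protein) averaged 0.2765 ± 0.016 CPM in CBLB502, against no count in control. Between the combination and cisplatin none passed (median −1.55 against 0.0 over all genes), where 0.00492% of all genes were called. Without cisplatin library 6, 5 fell (median −1.77), and the share of all genes called without it is not given here.

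Known inducers of Saa1 and their signalling chain were a list of 27 genes, of which 24 were tested in each tissue. In liver, 14 rose and 2 fell with cisplatin against control, 9 rose and 6 fell with the combination, and 5 rose and 1 fell with CBLB502. In kidney, 12 rose and none fell with cisplatin, 5 rose and 5 fell with the combination, and 1 rose and none fell with CBLB502. Of all genes, 43.1%, 40.2% and 27.8% were called against control with cisplatin, the combination and CBLB502 in liver, and 39.3%, 36.5% and 19.2% in kidney. The counts with CBLB502 in liver and with the combination in kidney lie near these shares and that with CBLB502 in kidney lies below, and these are no result about the list. Without the cisplatin libraries that stand apart, cisplatin gave 16 higher and 2 lower in liver and 13 higher and 1 lower of 25 in kidney. The shares of all genes called in those fits are not given here. Cebpd, a C/EBP factor of the acute-phase response, averaged 23.8 ± 13.7 CPM in cisplatin liver, 1.889 ± 0.0289 CPM in CBLB502 liver and 2.438 ± 1.16 CPM in control liver, and was called against both. In kidney, Cebpd averaged 89.81 ± 71.3 CPM in cisplatin and 3.354 ± 1.76 CPM in control (4.78 ± 0.745, adjusted p = 0.000517). Socs3, a feedback target of STAT3, averaged 77.66 ± 63.5 CPM in cisplatin kidney and 3.491 ± 2.64 CPM in control kidney (4.53 ± 0.855, adjusted p = 0.00167).

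Among cytokines of the list, Lif, a relative of interleukin-6, averaged 13.43 ± 8.5 CPM in cisplatin kidney and 0.3613 ± 0.317 CPM in control kidney, 37.2-fold higher. In liver it reached 0.9104 ± 0.837 CPM in cisplatin and had no count in control. Tnf had no count in cisplatin liver, against 1.167 ± 0.123 CPM in control liver, at least 115-fold lower in cisplatin (adjusted p = 0.00413). Il6 itself was close to absent, with 4, 26, 8 and 0 counts over the combination, cisplatin, CBLB502 and control libraries of liver, and 23, 68, 0 and 0 counts over those of kidney. Control libraries had far fewer counts outside mitochondrial genes, and the part of depth in the absence of Lif and Il6 counts there was not tested. Tlr5, the receptor of CBLB502, had 1.277, 1.099 and 2.314 CPM in combination, 0.2133, 0.2182 and 1.083 CPM in cisplatin, 3.138, 2.853 and 3.43 CPM in CBLB502 and 0, 1.78 and 0.5032 CPM in control liver, and at most 0.6766 CPM in any kidney library. Between the combination and cisplatin, 1 gene of the list fell in liver and none passed in kidney. Of all genes, 3.57% and 0.00492% were called there, so these counts are no result about the list. Without cisplatin libraries 3 and 6 the counts were 3 higher and 12 lower in liver and 1 higher and 15 lower in kidney. The shares of all genes called without these libraries are not given here, so these counts stand without their background.

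Genes for the lipoprotein partners and receptors of serum amyloid A were a list of 16, of which 16 were tested in liver and 15 in kidney. With cisplatin against control, 5 rose and 1 fell in liver and 6 rose and 3 fell in kidney. Beside the 43.1% and 39.3% of all genes called in these comparisons, the liver count is below the background and is no result about the list. Pltp, the phospholipid transfer protein of high-density lipoprotein, averaged 2.391 ± 0.805 CPM in cisplatin liver, 22.99 ± 8.68 CPM in CBLB502 liver and 9.846 ± 3.13 CPM in control liver, and was called lower in cisplatin against both. Apoa1, the main apolipoprotein of that particle, averaged 9556 ± 4430 CPM in cisplatin liver and 2661 ± 941 CPM in control liver (1.84 ± 0.373, adjusted p = 0.0021). Tlr2, a receptor that serum amyloid A can activate, averaged 5.932 ± 3.22 CPM in cisplatin kidney and 0.4744 ± 0.428 CPM in control kidney (3.7 ± 0.874, adjusted p = 0.00606). None of the 16 passed between the combination and cisplatin in either tissue, where 3.57% of all genes in liver and 0.00492% in kidney were called. Without cisplatin libraries 3 and 6 there were 5 lower in liver and 3 higher in kidney. The shares of all genes called without these libraries are not given here, so these counts are no result about the list.

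The 6 negative acute-phase proteins, which inflammation usually lowers, were mostly called higher in liver. With cisplatin against control 5 rose and none fell (median 2.02, and 5 rose and 1 fell without cisplatin library 3), and 5 rose and none fell also for the combination (median 1.8) and CBLB502 (median 1.69). Of all genes, 43.1%, 40.2% and 27.8% were called in these comparisons with all libraries. Alb, serum albumin, averaged 48900 ± 7480 CPM in cisplatin liver and 11930 ± 5870 CPM in control liver. Against CBLB502, where no library has the control make-up, 2 rose and none fell with cisplatin and none passed with the combination. Of all genes, 12.5% and 6.74% were called there. CBLB502 liver libraries still differed somewhat, with 53.53 to 57.75 M counts against 71.24 to 77.54 M in the other treated liver libraries. Their share from the mitochondrial chromosome was 6.73% to 7.1%, against 2.57% to 5.7%. In kidney, 2 rose with cisplatin, 1 with the combination and 1 with CBLB502 against control, and none fell, no more than the shares of all genes called there (39.3%, 36.5% and 19.2%).

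Genes beside the family were examined to see whether the locus moved as a whole. Within 100 kb of the 4 genes the table has 11 others, of which 5 are predicted models, and 7 were tested in liver and 8 in kidney. Between the combination and cisplatin none of them passed in either tissue. As only 3.57% of all genes in liver and 0.00492% in kidney were called there, this is no result about the locus. Saal1, a neighbour that lies 1.3 kb away and is named for its likeness to serum amyloid A, averaged 4.558 ± 1.09 CPM in cisplatin liver and 2.349 ± 1.83 CPM in control liver (0.96 ± 0.486, adjusted p = 0.133). Hps5, a trafficking gene 6.2 kb away, was lower in cisplatin liver, at 5.565 ± 2.75 CPM against 17.75 ± 2.35 CPM in control (−1.67 ± 0.3, adjusted p = 0.000962). Ldha, lactate dehydrogenase A, 87.2 kb away, was higher, at 855.8 ± 360 CPM in cisplatin liver and 60.77 ± 8.13 CPM in control (3.82 ± 0.325, adjusted p = 9.47e-06), and Gtf2h1, a subunit of a transcription and repair factor 41.8 kb away, was 2.55-fold higher. Tph1, 39.5 kb away, had no count in liver and was not tested. In cisplatin kidney, Sergef, 72.2 kb away, rose 4.7-fold, Ldha 3.0-fold and Saal1 1.64-fold against control. With cisplatin against control, 2 of the 7 tested neighbours were called higher and 1 lower in liver, and 3 of 8 higher in kidney. Of all genes, 43.1% and 39.3% were called there, so these counts are no result about the locus. The tested neighbours moved by 14.1-fold or less, where Saa1 moved by 592-fold in liver and 876-fold in kidney. Saa4 moved by 1.68-fold in liver, without a call, and by at least 36.9-fold in kidney.

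Genes most like Saa1 across the 12 liver libraries, by Pearson correlation of log2 CPM over 17931 genes, were Bcl2l1 (r = 0.987), Tacc2 (0.978), Polr1c (0.975), Litaf (0.975) and Sdsl (0.974). The correlation of Saa1 was 0.974 with Saa2, 0.844 with Saa3 and 0.395 with Saa4. These values describe 12 libraries in which a pair of cisplatin libraries stands far above the rest, and libraries share arm and kind. Bcl2l1, an inhibitor of apoptosis, had 33.36, 37.99 and 28.45 CPM in combination, 138.4, 139.7 and 29.62 CPM in cisplatin, 14.21, 15.62 and 12.91 CPM in CBLB502 and 11.31, 12.54 and 18.11 CPM in control. It showed the same low cisplatin library 3, over a much smaller range than Saa1. Most like Saa3 in liver were Mrpl52 (0.972), Mvp (0.968), Cep170 (0.965), Srp19 (0.965) and Eloc (0.964), and rank correlations with these were lower, from 0.608 to 0.748. In kidney, Naa30 (0.941), Nipa2 (0.939), Ttpal (0.931), Gtf2a1 (0.929) and Apoh (0.927) were most like Saa3, and Saa4 itself stood at 0.891. Apoh, a plasma apolipoprotein, had 17.15, 19.4 and 13.47 CPM in combination, 23.76, 14.83 and 4.819 CPM in cisplatin, 4.538, 5.141 and 6.1 CPM in CBLB502 and 1.861, 1.107 and 2.39 CPM in control kidney.

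**Figure D5:**
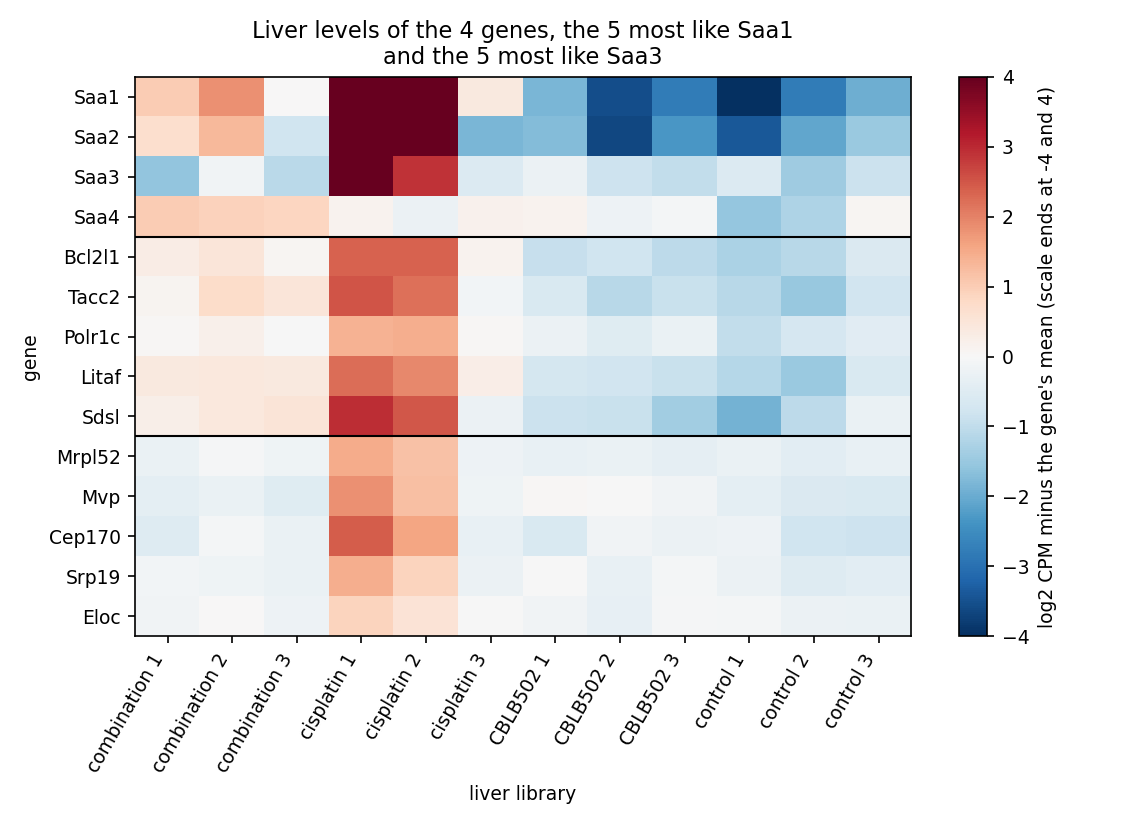
Heat map of log2 CPM in the 12 liver libraries, centred on each gene's mean, for the 4 serum amyloid A genes, the 5 genes most like Saa1 and the 5 most like Saa3; the colour scale ends at −4 and 4. Cisplatin libraries 1 and 2 are the warm columns for all genes but Saa4. Cisplatin library 3 lies near the combination libraries for some genes, as with Bcl2l1 at 29.62 CPM against 28.45 to 37.99 CPM. It lies below all of them for Saa2 (centred value −1.83 against −0.8 to 1.3), Saa4 (0.17 against 0.86 to 1.0), Tacc2 and Sdsl.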

How the data were processed

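Gene counts and FPKM values per library were deposited by the authors in 1 table of 33272 Ensembl genes, per the file headers. Reads were handled with cutadapt 1.9 and FastQC, per the submitters' processing notes. The aligner and counting program, strand, genome build and annotation are not given in the sources used here. The table's coordinates were compared with GENCODE vM21 (GRCm38), which held 99.65% of the IDs. Total RNA was extracted with Trizol, per the labels' protocols. Letters in the column names gave tissue and arm. The numbers 4 to 6 on columns of treated kidney have no match in the labels, so those libraries are known by group only, and their 9 FPKM columns were left out. The 15 FPKM columns used gave the implied gene lengths.

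Counts were tested with edgeR 4.0.16 (limma 3.58.1, R 4.3.3): genes passing filterByExpr, TMM scaling, the quasi-likelihood test and Benjamini-Hochberg adjustment at 0.05, with the 12 libraries of a tissue, or all 24 for tissue comparisons, in 1 fit. Alternatives were DESeq2 1.42.0, limma-voom, median-of-ratios scaling, no filter, no mitochondrial genes, only the arms compared, the replicate number as a block, and each library left out. On simulated counts for cisplatin against CBLB502, the test recovered 10% of 2-fold, 96% of 4-fold, 98% of 8-fold and 100% of 16-fold changes in liver (50 genes each among 17428), and 26%, 90%, 100% and 100% in kidney (19537 genes). The simulated counts had the same fixed dispersion for all genes and no library that stood apart. These rates therefore do not carry over to the cisplatin arms, where a library stood apart in each tissue. Replicates were compared, and the lowest chi-square per degree of freedom among 24 pairs was 29.2, so no pair agreed within sampling noise. Levels of a group with no count were set against 3 counts over the group. Library depths run from 40.58 to 77.54 M counts, so a gene with few counts is limited by depth in control. Promoter sequences are from RefSeq (GRCm38.p6), and all 4 members matched by symbol.

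The 4 members, the gene lists, the markers and the comparisons were chosen with earlier results of these data known. Genes named beside the members were those within 100 kb, the 5 most correlated with Saa1 or Saa3 leaving out predicted models, and up to 3 called genes per list and comparison with the largest change among those whose groups did not overlap; of these, some are given as counts only. Il6, Tlr5 and some levels of list genes in further groups were added after their values were seen.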

Additional observations from a re-analysis of the deposited data

Results flagged for a closer look

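The change of Saa4 with cisplatin against control differed between kidney and liver by 9.11 ± 1.79 on the log2 scale (kidney minus liver, edgeR's quasi-likelihood test over 21570 genes, adjusted p = 0.00277). In kidney, Saa4 had 298, 202 and 51 counts in cisplatin and none in control, and in liver it averaged 122.3 ± 18.4 CPM in cisplatin and 72.9 ± 47 CPM in control (SD, n = 3 each). All 3 kidney cisplatin libraries lay above all 3 control libraries, while in liver the groups overlapped. The value depends on the prior count of the fit, since kidney control was at 0, so it is not the size of the difference. It was 9.52 without kidney cisplatin library 6 and 9.21 without liver cisplatin library 3, and ranged from 8.5 to 9.52 over the 12 fits that left out a library (adjusted p from 0.000158 to 0.0117). Kidney control libraries had 5.05 to 10.14 M counts outside mitochondrial genes and their nuclear copies, against 44.0 to 68.83 M in treated kidney, and the part of this depth in the result was not tested.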

How the results depend on the processing

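Of the log2 fold changes of the 4 genes under all alternatives, 998 kept direction and side of the threshold, 111 lost a call, 21 gained one and 31 changed direction, all of the last in differences that had not been called. The number of members called, out of 4, moved by over 1.5 times as follows. With limma-voom it was 1 for kidney against liver in CBLB502 and in control (3 and 4 in edgeR), and in kidney 0 for CBLB502 against control, 2 for cisplatin against control, 0 for combination against CBLB502, 1 for combination against control and 0 for the interaction (3, 4, 2, 3 and 1 in edgeR). In liver limma-voom called 1 for cisplatin against control, 0 for combination against cisplatin, 1 for combination against control and 0 for the interaction (3, 2, 2 and 3 in edgeR). With DESeq2 it was 1 for the tissue difference of CBLB502 against control, 1 for kidney combination against cisplatin, 2 for the kidney interaction and 1 for liver combination against CBLB502 (0, 0, 1 and 0 in edgeR). With no filter it was 1 for liver combination against cisplatin. With only the arms compared it was, in liver, 1 for cisplatin against CBLB502, 3 for combination against CBLB502 and 0 for combination against cisplatin; in kidney, Saa2 fell out of CBLB502 against control and no count was made. The cause of these moves was not tested.

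Leaving out a library gave 0 to 2 members for kidney CBLB502 against control, 0 to 2 for kidney combination against cisplatin, 0 to 2 for the kidney interaction, 0 to 1 for liver CBLB502 against control, 1 to 3 for liver cisplatin against CBLB502, 0 to 3 for liver combination against cisplatin, 1 to 2 for liver combination against control, 0 to 3 for the liver interaction, 1 to 2 for the tissue difference of cisplatin against control and 0 to 1 for that of combination against cisplatin. Direction changed under limma-voom for Saa1 in kidney CBLB502 against control (0.36) and its tissue difference (0.3), for Saa3 in kidney combination against cisplatin (0.67), and for Saa2 in the tissue difference of combination against cisplatin (−0.1) and the kidney interaction (−0.34). In liver CBLB502 against control, Saa1 was −0.09 with DESeq2 and with median-of-ratios scaling, and Saa3 −0.01 with DESeq2. In liver combination against control, Saa3 was −0.23 with DESeq2, −0.22 with median-of-ratios scaling and −0.05 with only these arms. Over fits without a library, Saa1 ran from −0.38 to 0.78 and Saa2 from −0.68 to 0.24 in liver CBLB502 against control, Saa3 from −0.67 to 0.12 in liver combination against CBLB502 and from −0.37 to 0.42 in liver combination against control, Saa4 from −0.47 to 0.49 in the liver interaction and Saa2 from −0.78 to 1.31 in the kidney interaction. Saa1 ran from −1.69 to 6.35 in kidney CBLB502 against control, from −1.65 to 5.85 in its tissue difference and from −0.4 to 7.34 in that of cisplatin against control, and Saa3 from −0.46 to 0.31 between kidney and liver in combination.

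Same-numbered liver libraries did not deviate together: 5 of 18 pairs had a correlation over 0.1, from −0.169 to 0.176. With the replicate number as a block, the members called in liver were 0 for combination against cisplatin, 1 for combination against control and 0 for the interaction, and 2 changes turned, Saa1 in CBLB502 against control to −0.18 and Saa3 in combination against CBLB502 to 0.01. No paired analysis was made in kidney, since the numbers 4 to 6 on treated columns match no number in the labels and were not taken as pairs.

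Over all genes, counts of calls moved most for kidney combination against cisplatin, at 1 in edgeR, 623 with DESeq2, 6 with limma-voom and 0 with only these arms, and for liver combination against cisplatin, at 640 in edgeR, 2540 with DESeq2, 1943 with limma-voom, 390 with no filter or a block and 83 with only these arms. In control kidney the family had at most 44 counts in a library, and the part of depth in its values was not tested. On raw totals or on totals without mitochondrial genes and their nuclear copies, 37 of the group means of the 4 genes moved by more than 1 SD and 27 did not.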
